A study of Mus musculus with 3 samples.

Results

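Imprinted genes were described in NIH3T3 cells, an established line of mouse embryonic fibroblasts. A list of 38 imprinted genes was matched by gene name, and each name matched 1 of the 55573 genes in the deposited table. The cells were grown without treatment in DMEM with fetal bovine serum and antibiotics, and they gave 3 libraries (library 1 to library 3), so the data hold 1 condition and no contrast between groups. Whether separate cultures were used is not stated, so the SD between libraries may be technical, and the line is a single established population rather than a tissue. Levels are FPKM, fragment counts scaled to gene length and to the total of the library, after duplicate molecules were removed with unique molecular identifiers (UMI-RNAseq). The libraries rest on 13959723 to 14423209 counted fragments. Although the extraction text of the labels speaks of retinas, 9 of 10 fibroblast markers reached at least 1 FPKM (Lum was at 0) and 0 of 10 retina markers did. The retina markers summed to 0.978 to 1.61 FPKM per library, with Nrl at 0.

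An imprinted gene is expressed mainly from the copy inherited from one parent. The choice is set by DNA methylation laid down in the egg or the sperm at a differentially methylated region, and many imprinted genes lie in clusters that share such a region with a long noncoding RNA. Paternally expressed genes often promote fetal growth and maternally expressed ones often restrain it, and several imprinted genes are silenced after birth or are active in the brain and placenta only. The parental copy behind a fragment was not measured here. FPKM gives the sum over all copies, and in a bulk library fewer cells expressing a gene and less RNA per cell cannot be told apart.

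In NIH3T3 cells, 15 of the 38 imprinted genes had a mean of at least 1 FPKM (39.5%), against 23.2% of all genes listed and 49.2% of protein-coding genes. The limit was reached by 14 of the 32 members annotated as protein coding (43.8%) and by Airn alone among the 6 that are not. That depends on the annotated length, as Airn had 299 fragments over 798 nt and Kcnq1ot1 2876 over 93092 nt. A mean of at least 10 FPKM was found for 8 members (21.1%), against 14.8% of all genes listed and 35.6% of protein-coding genes. Another 14 members had at least 1 fragment but a mean under 1 FPKM. Of these 14, 8 rested on 1 to 5 fragments over all libraries, with the smallest counts that fit taken for Rian. The remaining 9 were listed at 0 in every library (23.7%), against 52.9% of all genes listed, and 8 of the 32 coding members were among them, against 28.2% of protein-coding genes. The median over the 38 members was 0.548 FPKM, whereas the median of all genes listed was 0 and that of protein-coding genes was 0.804. Grb10, Impact and Plagl1 together made up 60.5% of the 834 FPKM summed over the members. These shares describe the list and were not tested. Just above the limit lay Mkrn3 with a mean of 1.82 FPKM, and just below it lay Slc22a18 with 0.963 and Zrsr1 with 0.901.

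**Figure D1:**
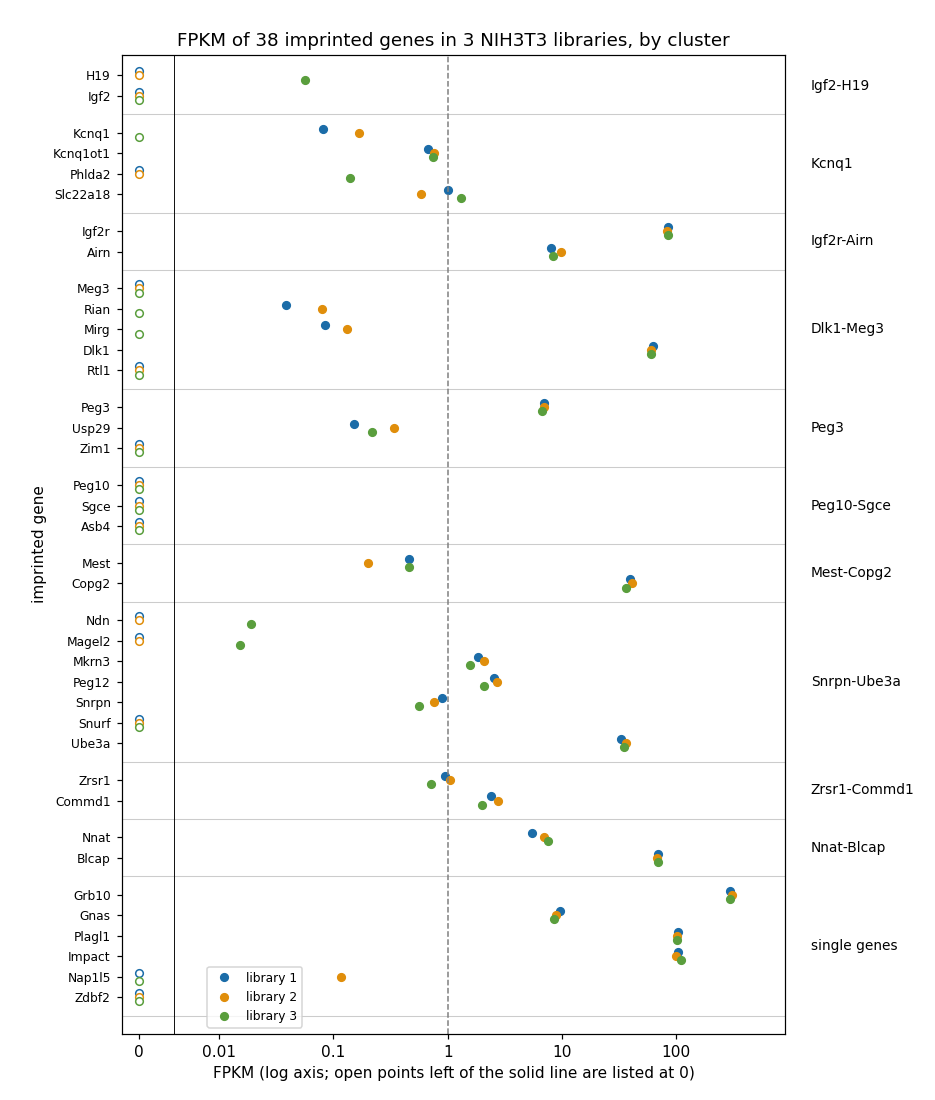
FPKM of each imprinted gene (rows, grouped by cluster) in library 1, library 2 and library 3 (points) on a log axis, with the dashed line at 1 FPKM and values of 0 as open points at the left. Grb10 lies highest, at 294 to 305 FPKM, and the Peg10, Sgce and Asb4 rows hold open points only.

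When the members were grouped by the parental copy that is known to be expressed in mouse, the number of genes at or above 1 FPKM varied, while 3 of 10 maternally and 6 of 22 paternally expressed genes were at 0. At least 1 FPKM was reached by 1 of 10 maternally expressed genes (10.0%, Igf2r) and by 8 of 22 paternally expressed genes (36.4%). This limit was also reached by 6 of 6 genes whose imprint depends on the tissue or the isoform (Grb10, Gnas, Blcap, Copg2, Ube3a and Commd1). Among all genes listed the share was 23.2%, and among protein-coding genes it was 49.2%. The median was 0.0430 FPKM for the maternally expressed genes, 0.548 for the paternally expressed genes and 36.8 for the tissue-dependent genes. The 6 tissue-dependent genes were kept as a class of their own. The maternal and paternal counts and medians depend on that choice, and no other grouping was tested. Genes of 1 cluster share their control, so they are not independent of each other and no test was made.

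**Figure D2:**
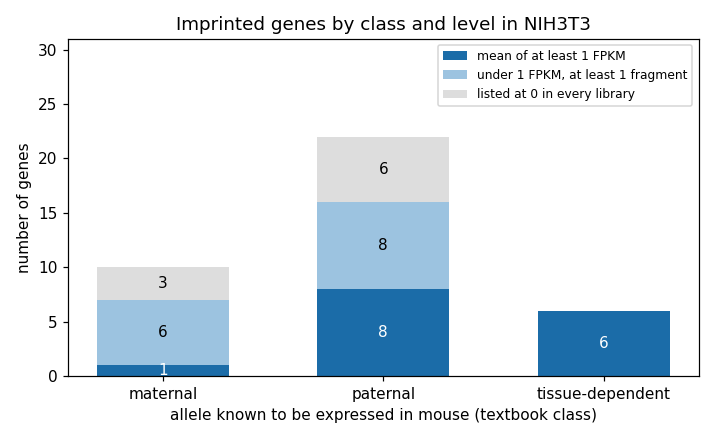
Number of imprinted genes (vertical axis) with a mean of at least 1 FPKM, with fragments but under 1 FPKM, and at 0 in every library, by the parental copy known to be expressed. The 6 tissue-dependent genes all lie at or above 1 FPKM, whereas 1 of the 10 maternally expressed genes does.

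The promoters of the members were compared first, since several regions with parental methylation cover promoters. RefSeq windows on GRCm38.p6, from 250 bases before to 50 bases after a start site, were matched by symbol for 32 members (48 windows). The motif TGCCGC, which the imprint-maintaining zinc finger protein Zfp57 binds when it is methylated, was searched on both strands. At least 1 copy was found for 13 of the 32 members (40.6%), against 14.8% of all 20743 genes with windows and a value, and 11.6% of all windows held it. Snrpn and Snurf share the window that holds it, and counted once the share was 12 of 31 (38.7%). The motif was present for 5 of 14 members at or above 1 FPKM (35.7%) and for 8 of 18 below it (44.4%, or 7 of 17 with the shared window counted once). Among all genes, the shares were 22.8% above and 8.58% below that limit. The median number of CpG sites in the window richest in them was 17.5 for the members at or above 1 FPKM and 10.5 for those below, against 23 and 4 among all genes. Bases upstream of the start are shown for Plagl1, Copg2, Mest and Nap1l5, since all 4 hold the motif while their levels differ, with means of 102 and 39.1 FPKM for Plagl1 and Copg2 and 0.371 and 0.0386 FPKM for Mest and Nap1l5. The shown bases lie at chr10:13090582-13090831 on the plus strand for Plagl1, chr6:30896795-30897044 on the minus strand for Copg2, chr6:30737800-30738049 on the plus strand for Mest and chr6:58907127-58907376 on the minus strand for Nap1l5. They are written 5′ to 3′ along the gene, and capitals mark TGCCGC or its reverse complement.
Plagl1: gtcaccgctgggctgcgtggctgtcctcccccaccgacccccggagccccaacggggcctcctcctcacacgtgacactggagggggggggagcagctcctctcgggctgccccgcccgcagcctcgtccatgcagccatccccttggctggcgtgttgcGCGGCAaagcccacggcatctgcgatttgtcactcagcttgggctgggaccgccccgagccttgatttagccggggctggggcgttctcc
Copg2: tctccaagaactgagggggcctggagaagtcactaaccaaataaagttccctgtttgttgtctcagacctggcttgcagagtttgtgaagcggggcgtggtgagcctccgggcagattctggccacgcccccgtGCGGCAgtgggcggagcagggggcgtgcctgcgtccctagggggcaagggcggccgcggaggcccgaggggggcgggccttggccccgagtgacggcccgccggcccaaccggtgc
Mest: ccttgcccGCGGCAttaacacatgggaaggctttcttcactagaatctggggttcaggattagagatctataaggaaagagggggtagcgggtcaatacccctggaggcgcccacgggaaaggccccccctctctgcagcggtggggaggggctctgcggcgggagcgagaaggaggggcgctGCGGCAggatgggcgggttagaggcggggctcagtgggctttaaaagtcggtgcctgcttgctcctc
Nap1l5: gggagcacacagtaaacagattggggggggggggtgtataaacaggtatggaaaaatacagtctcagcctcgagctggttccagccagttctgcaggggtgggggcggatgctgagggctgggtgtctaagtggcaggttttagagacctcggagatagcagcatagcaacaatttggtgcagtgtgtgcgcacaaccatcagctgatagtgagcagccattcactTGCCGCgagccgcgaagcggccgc
The shown bases hold 1 copy for Plagl1, Copg2 and Nap1l5 and 2 for Mest. A match to these letters does not show binding, and methylation was not measured.

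In the distal region of chromosome 7, the Igf2-H19 cluster (chr7:142575529-142666816, GENCODE M21 on GRCm38, as for all cluster positions) and the Kcnq1 cluster (chr7:143106362-143503150) were silent or low. Igf2, a fetal growth factor, was at 0 FPKM in library 1, library 2 and library 3. A count of 3 fragments, the limit that a count of 0 allows, would equal 0.107 FPKM in library 2. H19, the noncoding RNA expressed from the other parental copy, had 1 fragment in library 3 and none in the others. No order of Igf2 and H19 could be given. The absence of Igf2 fragments is limited by the annotation, as 64.5% of its exon bases are shared with other genes, mainly the read-through gene Gm49394, which was also at 0. Within the Kcnq1 cluster, Kcnq1ot1, the long noncoding RNA that silences the cluster in cis on the paternal copy, had 0.669, 0.756 and 0.748 FPKM in libraries 1, 2 and 3. Its low FPKM goes with an annotated length of 93092 nt. It rested on 898, 982 and 996 fragments, which ranked 7 among the members by fragments. Kcnq1, a potassium channel gene that contains the whole of Kcnq1ot1 on the opposite strand, had 1, 2 and 0 fragments. Fragments of Kcnq1ot1 and of unspliced Kcnq1 RNA cannot be told apart if strand is not used in counting. Per length, Kcnq1ot1 lay 8.84-fold above Kcnq1 over the summed fragments (exact 95% interval 3.02 to 42.9, counting error only), and 31.2-fold with the longest isoforms. Slc22a18, a membrane transporter gene, had 1.01, 0.579 and 1.30 FPKM, so that library 2 lay below 1 and the others above it. Phlda2, a restrainer of placental growth, had 1 fragment, in library 3. The summed ratio of Slc22a18 to Phlda2 was 20.6 (exact 95% interval 3.53 to 828, counting error only).

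Igf2r and Airn, which overlap at chr17:12682406-12860136, were both detected. Igf2r, the receptor that carries IGF2 to lysosomes for breakdown, had 84.03, 82.7 and 83.9 FPKM, a mean of 83.6 ± 0.740 (SD, n = 3 libraries). It was the only gene at or above 1 FPKM in the maternally expressed class, which leaves out the tissue-dependent genes such as Grb10. Airn, the antisense noncoding RNA that silences the paternal Igf2r copy, had 8.08, 9.87 and 8.41 FPKM, a mean of 8.79 ± 0.955 (SD, n = 3). These values rest on 93, 110 and 96 fragments and divide by 798 nt, the mean length of its annotated isoforms. Igf2r lay above Airn in each library, by a factor of 10.4, 8.38 and 9.98, and their values did not overlap. The log2 ratio was 3.25 ± 0.17 (SD, n = 3), and it was 2.62 with the longest isoform of each gene and 5.31 without division by length. The main ratio gave p = 0.25 in a two-sided exact permutation test that flips the sign per library. The adjusted value over the 5 neighbouring pairs that could be tested was 0.25 as well (Benjamini-Hochberg). With 3 libraries the test cannot go below this p, and no pair could pass 0.05. Airn and Igf2r share 28354 nt of their spans but no exon base. Airn lies there in Igf2r introns, and fragments of unspliced Igf2r RNA and of Airn cannot be told apart if strand is not used in counting.

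Whether strand was used is not stated, but the values bear on it. Among genes with at least 200 exon bases, small RNA genes left out, 284 had at least 99% of their exon bases shared with a gene on the opposite strand only, and 1 of these 284 had any fragment (0.352%). Of 213 genes with such an overlap on the same strand only, 0 had a fragment, which allows a share of up to 1.41%. Among the 37463 genes that share no exon base, 46.5% had a fragment. Genes nested in the exons of another gene were thus almost never counted, on either strand. How far shared exon bases lowered the level of a member was not tested.

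In the Dlk1-Meg3 cluster (chr12:109452823-109749460), Dlk1 stood apart from its neighbours. Dlk1, which encodes a transmembrane protein of the Notch ligand family that restrains adipocyte differentiation, had 62.8, 59.8 and 59.9 FPKM, a mean of 60.8 ± 1.71 (SD, n = 3). Rtl1, a retrotransposon-derived gene expressed from the same paternal copy, was at 0 in all libraries. Dlk1 was at least 1768-fold higher than Rtl1, with Rtl1 set to a floor of 3 fragments per library, and at least 764-fold higher with the longest isoform of each gene. The maternally expressed noncoding RNAs of the cluster were at or near 0. Meg3 was at 0 in all libraries, and Dlk1 was at least 751-fold higher than Meg3 on the same floor (at least 1749-fold with the longest isoforms). Rian, a host of small nucleolar RNAs, had 1, 2 and 0 fragments, the smallest counts that fit its FPKM. Mirg, a host of microRNAs, had 2, 3 and 0. These counts do not order the 3 noncoding RNAs. Begain, the flanking gene before the cluster, had 1.58 FPKM, and Dio3 after it was at 0.

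Peg3 and Usp29 start head to head in the cluster at chr7:6671269-6967219 and share a paternal promoter region, but their levels differed. Peg3, a zinc finger gene known for its role in maternal behaviour and growth, had 6.99, 6.91 and 6.63 FPKM, a mean of 6.84 ± 0.189 (SD, n = 3). Usp29, annotated as a ubiquitin-specific peptidase, had 0.152, 0.337 and 0.219 FPKM from 7, 15 and 10 fragments. Peg3 lay above Usp29 by a factor of 46.0, 20.5 and 30.3 in libraries 1, 2 and 3, without overlap of the values. The log2 ratio was 4.93 ± 0.58 (SD, n = 3), and the exact sign-flip permutation test gave p = 0.25, the smallest possible. The maternally expressed zinc finger gene Zim1, next to Peg3, was at 0 in every library. Peg3 was at least 101-fold higher than Zim1 (floor of 3 fragments per library).

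The 3 members of the Peg10-Sgce cluster (chr6:4674350-5433022) gave no fragment. Peg10, a retrotransposon-derived gene needed for the placenta, and Sgce, which encodes epsilon-sarcoglycan, are both expressed from the paternal copy and start head to head. Both were at 0 in every library, and so was Asb4, an ankyrin repeat and SOCS box gene of the maternal copy. In library 2, 3 fragments would equal 0.0324 FPKM for Peg10, 0.113 for Sgce and 0.0971 for Asb4. None of these genes shares an exon base with another annotated gene. Ppp1r9a, which lies between Sgce and Asb4, had 3 fragments, all in library 1, and so did not exceed the floor of 3 fragments. Genes beside the cluster were detected. Casd1, 30995 nt before the cluster, had 35.8 ± 1.34 FPKM and Pdk4, 50329 nt after it, had 7.33 ± 0.777 (SD, n = 3).

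Mest and Copg2, which converge at chr6:30723547-30896794, gave opposite results. Mest, a paternally expressed gene of the alpha/beta-hydrolase fold that is active in embryonic mesoderm, had 0.454, 0.201 and 0.458 FPKM from 7, 3 and 7 fragments. Copg2, a coatomer subunit of vesicle transport, had 39.7, 41.1 and 36.6 FPKM, a mean of 39.1 ± 2.32 (SD, n = 3). Over the summed fragments, Copg2 lay 105-fold above Mest (exact 95% interval 65.4 to 180, counting error only). The genes share 912 exon bases at their ends, which are 23.1% of the exon bases of Mest and 17.8% of those of Copg2.

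In the Snrpn-Ube3a region (chr7:59228750-62464510), which corresponds to the human Prader-Willi and Angelman region, the members ranged from 0 to over 30 FPKM. Ube3a, the ubiquitin ligase that is imprinted in neurons, had 32.6, 36.3 and 34.5 FPKM, a mean of 34.5 ± 1.86 (SD, n = 3). The paternally expressed genes of the region were far lower. Peg12 had 2.55, 2.71 and 2.07 FPKM and Mkrn3, which encodes a RING finger protein, had 1.82, 2.08 and 1.56 FPKM. Peg12 lay above Mkrn3 in each library, but the lowest value of Peg12 was below the highest of Mkrn3. Ndn, which encodes the growth-restraining protein necdin, and its relative Magel2 each had 1 fragment, in library 3. Per length, Mkrn3 lay 287-fold above Ndn over the summed fragments, with a wide interval (exact 95% interval 50.9 to 11399, counting error only). The active and the near-silent genes are thus next to each other. Snrpn, which encodes a core protein of spliceosomal particles, had 0.900, 0.751 and 0.558 FPKM. Ube3a lay above Snrpn by a factor of 36.2, 48.3 and 61.9, with a log2 ratio of 5.57 ± 0.39 (SD, n = 3) and an exact permutation p of 0.25. With the longest isoform of each gene, this log2 ratio was 3.44. Other genes share 34.1% of the exon bases of Snrpn and 27.3% of those of Ube3a. How far this lowered either level, and so moved their ratio, was not tested. Snurf, the short upstream frame of the same transcript, was at 0, but all of its exon bases are shared with Snrpn and with the predicted gene Gm38393. The level of Snurf could thus not be read from these values. Gm38393, which covers 27.3% of the exon bases of Snrpn, had 1.48, 1.53 and 1.54 FPKM. Snhg14, the noncoding RNA that runs antisense to Ube3a in neurons, had 1.86, 2.52 and 2.64 FPKM.

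Nnat lies within the span of Blcap, and Zrsr1 within that of Commd1, and in both pairs the outer gene was the higher. Blcap, named for its loss in bladder cancer, had 69.8, 67.3 and 69.3 FPKM, a mean of 68.8 ± 1.30 (SD, n = 3). Nnat, a small membrane protein gene within it, had 5.48, 6.93 and 7.50 FPKM, a mean of 6.64 ± 1.04 (SD, n = 3). Their log2 ratio was 3.39 ± 0.25 (SD, n = 3). Nnat shares no exon base with Blcap, which runs on the opposite strand. As for Airn, its fragments and those of unspliced Blcap RNA cannot be told apart if strand is not used in counting. The same holds for Zrsr1 and unspliced Commd1 RNA, as Zrsr1 runs on the strand opposite to Commd1. Commd1, a regulator of copper transport and of NF-kB, had 2.39, 2.78 and 1.996 FPKM. Zrsr1, the splicing factor-related gene within it, had 0.941, 1.04 and 0.717 FPKM. Their log2 ratio was 1.41 ± 0.07 (SD, n = 3), the smallest of the 5 tested pairs. The exact permutation p was 0.25 for both pairs. Without division by gene length, the log2 ratio of Commd1 to Zrsr1 fell to 0.27, and with the longest annotated isoform it was 0.26. Nap1l5, a nucleosome assembly relative inside Herc3, had 2 fragments, both in library 2, whereas Herc3, a ubiquitin ligase gene, had 6.57, 8.02 and 8.15 FPKM.

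**Figure D3:**
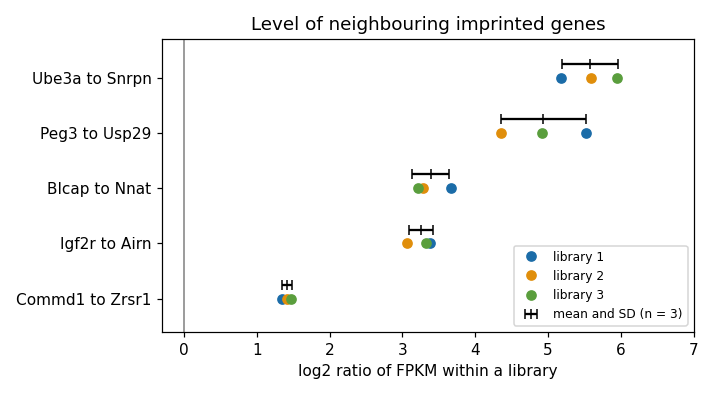
Log2 ratio of FPKM within each library (points, horizontal axis) for the 5 neighbouring pairs in which both genes had more than 3 fragments per library, with the mean and SD. All points lie right of 0, from 1.34 for Commd1 to Zrsr1 in library 1 to 5.95 for Ube3a to Snrpn in library 3.

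The highest levels belonged to imprinted genes outside these clusters. Grb10, an adaptor that damps insulin and IGF receptor signalling, had 294, 305 and 295 FPKM, a mean of 298 ± 6.37 (SD, n = 3), which ranked 303 among the 12905 genes of at least 1 FPKM. Impact, a regulator of translation under amino acid shortage, had 104, 100.3 and 109 FPKM, a mean of 104 ± 4.24 (SD, n = 3). Plagl1, a zinc finger factor that can arrest the cell cycle and regulates other imprinted genes, had 104, 102 and 101 FPKM, a mean of 102 ± 1.76 (SD, n = 3). The values of Impact and Plagl1 overlapped. Zdbf2, a zinc finger gene imprinted in early development, was at 0 in all libraries, and 3 fragments would equal 0.0254 FPKM in library 2. Gnas, which encodes the stimulatory G protein alpha subunit and several imprinted isoforms, had 9.56, 8.85 and 8.53 FPKM, a mean of 8.98 ± 0.529 (SD, n = 3). This value covers the counted part of the gene only. The 3 coding isoforms of 1695 to 1789 nt, which start between 174330006 and 174330097 on chromosome 2 of GRCm38, share 80.4% to 85.4% of their bases with the predicted gene Gm20721 on the opposite strand. Gm20721 itself had a mean of 0.0318 FPKM. How many Gnas fragments fell in the shared bases was not tested.

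Among the 15 members at or above 1 FPKM, most neighbours in the order of means had ranges over the libraries that did not overlap. The order was Grb10, Impact, Plagl1, Igf2r, Blcap, Dlk1, Copg2, Ube3a, Gnas, Airn, Peg3, Nnat, Peg12, Commd1 and Mkrn3. The neighbours that could not be ordered were Impact and Plagl1, Gnas and Airn, Peg3 and Nnat, Peg12 and Commd1, and Commd1 and Mkrn3. This order depends on the gene length. The deposited FPKM divide by the mean length of the annotated isoforms, which the longest isoform exceeds by a factor of 5.37 for Plagl1, 4.54 for Ube3a and 3.98 for Impact, against a median of 1.73 over all genes of at least 1 FPKM. With the longest isoform, Plagl1 fell from 102 to 19.1 ± 0.327 FPKM and Impact to 26.2 ± 1.07 (SD, n = 3). Blcap with 31.5 ± 0.594 and Igf2r with 31.1 ± 0.276 then ranked behind Grb10, which remained first with 119 ± 2.54. Commd1 dropped below 1 FPKM, to 0.723 ± 0.119 (SD, n = 3).

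**Figure D4:**
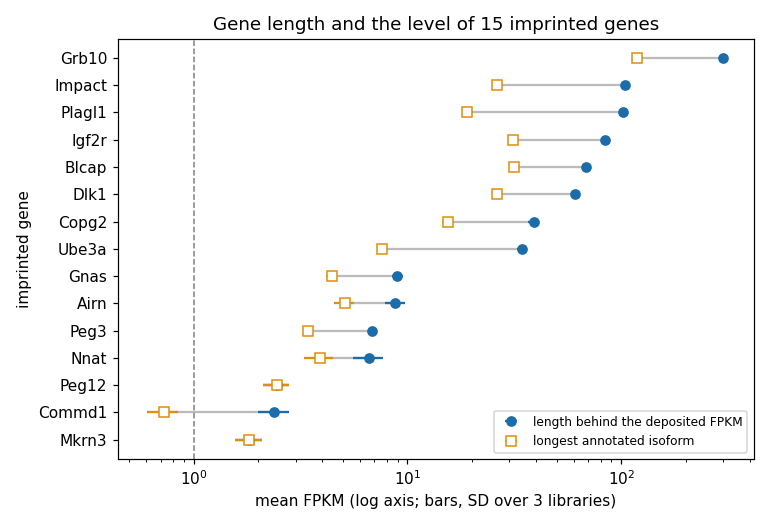
Mean FPKM (log axis) of the 15 imprinted genes at or above 1 FPKM, with the gene length behind the deposited values (filled) and with the longest annotated isoform (open squares), and bars for the SD over 3 libraries. Plagl1 moves from 102 to 19.1 FPKM and Commd1 crosses the dashed line at 1 FPKM, while Peg12 and Mkrn3, with 1 isoform each, stay in place.

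The levels of the imprinted genes were close between libraries. Among the 15 members at or above 1 FPKM, the coefficient of variation ranged from 0.886% for Igf2r to 16.4% for Commd1, with a median of 5.40%. It exceeded the value that counting error alone gives in 10 of the 15, by a factor of up to 1.98 for Grb10 (2.14% against 1.08%). For Kcnq1ot1 the coefficient of variation was 6.63%, against 3.23% from counting error. The single fragments of H19, Phlda2, Ndn and Magel2 all came from library 3. Fragments of Rian and Mirg came from libraries 1 and 2, and no difference between libraries was detectable at this depth for these genes.

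Further imprinted genes that were not among the members were split in a similar way. Of 31 such genes, 13 had at least 1 FPKM (41.9%, against 49.2% of protein-coding genes) and 9 were at 0 (against 28.2% of those). The highest were Cd81, a tetraspanin gene at the edge of the Kcnq1 cluster, with 189.9 ± 1.89 FPKM, Tnfrsf23, a decoy receptor gene of the same region, with 40.3 ± 1.51, and Casd1 with 35.8 ± 1.34 (SD, n = 3). Those at 0 were Cdkn1c, the cell cycle inhibitor of the Kcnq1 cluster, together with Ins2, Slc22a2, Slc22a3, Dio3, Tfpi2, Klf14, Gatm and Gpr1. Ascl2, Ppp1r9a, Calcr, Rasgrf1, Peg13, Kcnk9, Ddc and Nespas had means under 0.1 FPKM. The nearest named coding genes on either side of each cluster or single gene were chosen after the values were seen. They reached 1 FPKM in 14 of 32 cases (43.8%), against 49.2% of protein-coding genes. Ins2, Dio3, Casd1, Ddc and Gpr1 are among these flanking genes and also among the further imprinted genes. Nap1l4, 10429 nt from Phlda2, had 143 ± 1.95 FPKM and Cct4, 8137 nt from Commd1, had 374 ± 5.62 (SD, n = 3), while Phlda2 had 1 fragment and Commd1 had 2.39 FPKM.

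Of 12 factors known to set or keep imprints in germ cells, embryos or somatic cells, 9 had at least 1 FPKM, against 49.2% of protein-coding genes. Trim28, the corepressor that zinc finger proteins recruit to imprinted regions, had 245 ± 4.38 FPKM (SD, n = 3). Zfp445 and Zfp57, zinc finger proteins that bind such regions, had 81.1 ± 1.89 and 77.3 ± 1.498 FPKM (SD, n = 3). Dppa3, which protects imprints in the early embryo, was at 0, and Ctcfl, the germline relative of Ctcf, had 0.00747 FPKM.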

How the data were processed

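NIH3T3 cells gave 3 UMI-RNAseq libraries. According to the methods and the submitters' processing notes, UMI-tools 1.0.0 served to find the UMIs, HISAT2 2.0.4 to map reads and HTSeq 0.6.1 to count them per gene. The annotation and build are not given in the sources used here. The authors deposited FPKM values, 1 column per library, in 2 tables that hold the same values, and 0 columns were left unused. FPKM is not a count, so no count model was fitted.

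Fragments were recovered from the FPKM with GENCODE M21 (GRCm38), in which 55480 gene IDs were found. The total of a library came from single-isoform genes, and the mean isoform length gave whole fragments (within 0.02) for 96.7% of the 26178 genes with a fragment. For Gnas and Rian, the smallest length that gives whole fragments was used, so their fragment counts are the smallest that fit. On simulated fragments the recovery returned 100% of 24540 genes. Of 19 neighbouring pairs, 5 were compared by the log2 FPKM ratio in a two-sided exact permutation test (sign flips), 3 were given as bounds against 3 fragments per library, 4 as summed ratios with exact Clopper-Pearson 95% intervals in place of the planned bound, and 7 had no fold. Intervals and floors cover counting error only. The p-values take the libraries as units, and the differences between these may be technical. When all 3 log2 ratios have the same sign, the permutation test gives p = 0.25 whatever their spread. Shared 75-nt words were counted against GENCODE M21 transcripts, and for the members they came almost only from overlapping genes. Python 3.11.15, numpy 2.4.6, pandas 2.3.3, scipy 1.17.1 and matplotlib 3.10.9 were used.

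The rule for naming took all members, of the further lists the 3 highest genes and those at 0 or under 0.1 FPKM, and genes that overlap a member. Not all cell type markers and overlapping genes that it takes are printed, and 1 marker gene is not reported here. The members, pairs and lists were chosen with earlier results of these data known. Flanking genes, promoter windows and the check of overlapping genes were added after the values were seen.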

Additional observations from a re-analysis of the deposited data

How the results depend on the processing

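The count of imprinted genes with a mean of at least 1 FPKM stayed within 1.5 times of 15 under 7 of 8 alternatives. It was 21 with a limit of 0.1 FPKM, 19 after rescaling to TPM, 14 with the longest isoform and 15 when every library had to reach the limit. With a limit of 10 FPKM it was 8. Leaving out one replicate gave 15 to 16, and the additional gene was Slc22a18, whose mean was 1.15 FPKM without library 2. Of the mean levels of single genes, 37 alternative values moved by more than 1 SD, all under TPM or the longest isoform, which for single genes were chosen after seeing the data, as were the longest-isoform values of bounds and summed ratios. Leaving out 1 of 3 libraries cannot move a mean by 1 SD, so it says nothing about the stability of these means. The log2 ratios of the 5 tested pairs kept their sign in all 35 alternatives, but their size depended on the gene length, and none could pass 0.05 with 3 libraries. No paired analysis was possible because all libraries belong to 1 group. Genes with few fragments are limited by depth, since members at 0 may be expressed below 3 fragments per library, and for Snurf the shared exon bases leave no such limit.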
